A study of Sus scrofa with 8 samples.

Results

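The levels of 10 genes that mark the resident macrophages of the liver were compared: the receptors CD163, MARCO, MSR1, VSIG4, TIMD4 and CSF1R, the secreted protein CD5L and the C1q chains C1QA, C1QB and C1QC. They were picked by symbol as one functional group, with no threshold on a value but with earlier results of these data known. They are 10 of the 18103 rows of the expression table. Each symbol matched 1 row.

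Kupffer cells are the macrophages that live in the sinusoids of the liver, where they take up particles, modified lipoproteins, dying cells and haemoglobin complexes from the blood. Scavenger receptors such as MARCO and MSR1 bind many negatively charged ligands, while VSIG4 and TIMD4 are receptors by which resident Kupffer cells recognise complement-coated particles and exposed phosphatidylserine. C1q, assembled from A, B and C chains, is the recognition part of the first complement component and is made mostly by macrophages, in contrast to many complement proteins that hepatocytes secrete.

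Hepatic RNA of male Landrace x Large White pigs was studied by RNAseq in 8 libraries, each a pool of equal RNA amounts of 2 pigs. The initial state (4 pools) was the liver of healthy pigs of 4 months on a control diet, obtained by surgical biopsy under anaesthesia. Steatosis (4 pools) was the liver of the same animals at 6 months, taken at euthanasia after 2 months on a diet rich in saturated fat, fructose, cholesterol and cholate and poor in methionine and choline. Pools carry the numbers 1 to 4 in each group, and it is not stated that pools of the same number hold the same pigs. Diet, age and way of sampling changed together and cannot be told apart. The values are those of whole tissue, so fewer cells of a type and less RNA per cell cannot be told apart either, nor can more of each.

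The values are FPKM, fragments scaled to the length of the transcript and to the mapped reads of the library. All errors are SD between 4 pools of a group. Library depth, read from the steps between low values, lay between 92.9% and 100% of the deepest library. The 10 genes had between 107 fragments (MARCO, in the lowest library) and 10883 fragments (CD5L, in the highest) behind a value. Initial pool 1 stood apart: the sum of skeletal muscle genes reached 2590 FPKM in the initial state against 0.35 FPKM at most in steatosis, and the sum of stomach mucosa genes reached 1520 FPKM against 6.28 FPKM at most, both highest in that pool. Hepatocyte genes dominated every library (ALB at a mean of 50400 FPKM initially and 37500 FPKM in steatosis). Initial pool 4 gave the highest initial value for 8 of the 10 genes, and it also had the lowest median-ratio scale factor (0.788, against 1.055 to 1.088 in steatosis), so values without it are given where they matter.

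In the initial state the order of the mean levels was C1QB, C1QC, C1QA and CD5L, between 293 and 190 FPKM, followed at a distance by CD163 (23.1 FPKM), CSF1R (18.4 FPKM), VSIG4 (17.7 FPKM) and TIMD4 (15.5 FPKM), and last MSR1 (7.32 FPKM) and MARCO (5.87 FPKM). Within each of these 3 tiers, neighbours overlapped between pools. In steatosis the first 4 places were unchanged, with no overlap between neighbours. MARCO (63.3 FPKM) and MSR1 (37.9 FPKM) had moved from the last places to the fifth and sixth, above VSIG4, CD163 and CSF1R, with overlap between neighbours, and TIMD4 (20.5 FPKM) was last, below every pool of CSF1R. FPKM is per length, which allows only a rough comparison of levels between genes. Newly assembled transcripts count in several of these values, and their part was not tested.

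**Figure D1:**
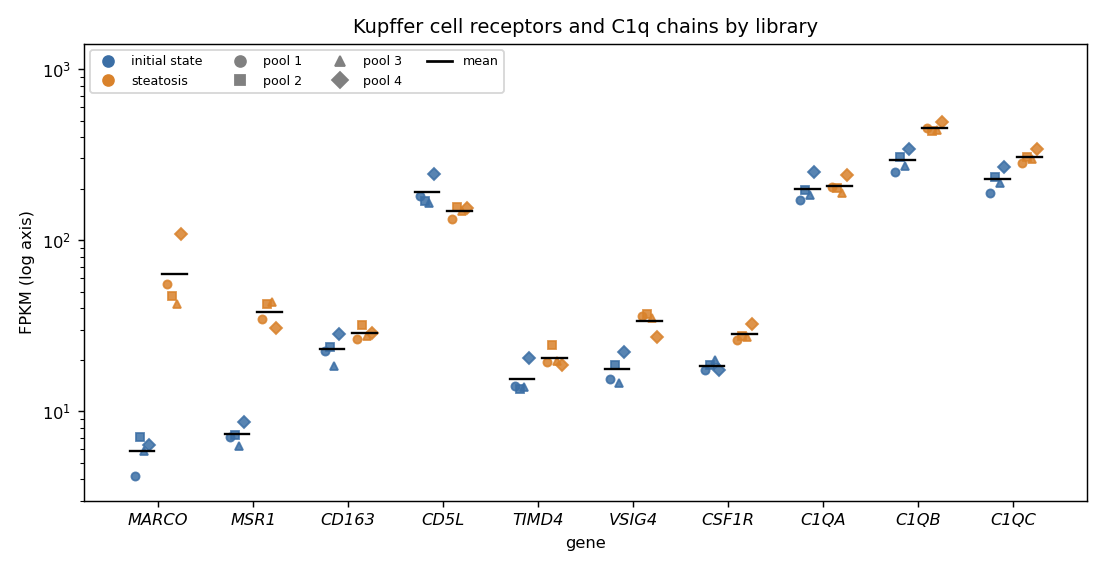
FPKM (log axis) of the 10 genes in each library, with blue for the initial state, orange for steatosis, 1 marker shape per pool number and a bar at the mean. MARCO and MSR1 lie at 4.16 to 8.66 FPKM in the initial pools and at 30.65 FPKM or above in steatosis, while C1QA overlaps between the groups.

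The comparison of steatosis with the initial state asked how these genes changed in the fatty liver. MARCO and MSR1 rose, and no gene fell, by the criterion of an adjusted p under 0.01 together with a log2 fold change beyond 1 (limma, Benjamini-Hochberg over the 13175 genes tested). These 2 of 10 stand beside 6.01% of all tested genes called higher and 0.334% called lower. Without the fold limit, at an adjusted p under 0.05, 6 of the 10 were higher (MARCO, MSR1, VSIG4, CSF1R, C1QB and C1QC) and 0 lower, beside 26.7% and 2.28% of all tested genes. In the same 6 genes every steatosis pool lay above every initial pool, as in 29.6% of tested genes, and in CD5L every steatosis pool lay below, as in 2.53%. The median log2 change of all tested genes was 0.25 on the deposited scale, and 8 of the 10 lay above it. All 10 passed the filter on low values with every library above it, so the filter selected none of them.

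MARCO, a class A scavenger receptor that binds bacteria and modified lipoproteins, had 4.16, 7.1, 5.83 and 6.38 FPKM in initial pools 1 to 4 and 55.69, 46.96, 42.61 and 108.02 FPKM in the steatosis pools. The groups were far apart, and steatosis pool 4 was the highest by a wide margin. With means of 5.87 ± 1.25 and 63.3 ± 30.3 FPKM (SD, n = 4), MARCO rose 10.8-fold, with a log2 change of 3.33 (SE 0.279, 95% interval 2.71 to 3.95, adjusted p = 6.19e-05). This placed MARCO at percentile 99.8 of the log2 changes of all tested genes. The rise within pool numbers ran from 6.61-fold (pool 2) to 16.9-fold (pool 4). Without steatosis pool 4 the log2 change was 3.04. MARCO is in a pathway list of genes that the study chose on these libraries, so its direction there is not independent evidence.

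MSR1, the founding class A scavenger receptor and a receptor for acetylated and oxidised LDL, had 7.07, 7.29, 6.26 and 8.66 FPKM initially and 34.83, 42.29, 43.73 and 30.65 FPKM in steatosis. No pools overlapped, and here steatosis pool 4, the highest for MARCO, was the lowest. From 7.32 ± 0.997 FPKM the mean went to 37.9 ± 6.2 FPKM (n = 4), a 5.17-fold rise, with a log2 change of 2.35 (SE 0.142, adjusted p = 1.09e-05).

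VSIG4, also known as CRIg, a receptor for C3b and iC3b, had 15.41, 18.73, 14.62 and 22.21 FPKM in the initial pools. In steatosis it had 36.22, 37.07, 35.07 and 27.1 FPKM. All steatosis pools were above all initial ones, with pool 4 nearest to the initial range. It was 1.22-fold of initial pool 4, the highest initial value, and the other pool numbers had 1.98-fold to 2.4-fold. The log2 change of 0.94 (SE 0.153, adjusted p = 0.00205) stayed just under the fold limit. It passed that limit without initial pool 4 (1.05) and without steatosis pool 4 (1.04).

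CSF1R, the receptor for CSF1 and IL34 on which the survival of macrophages depends, was the least variable of the 10 initially (CV 6.27%). Its values were 17.41, 18.67, 19.86 and 17.51 FPKM initially and 26.1, 27.44, 27.11 and 32.55 FPKM in steatosis. The groups did not overlap, and the log2 change was 0.62 (SE 0.0982, adjusted p = 0.0018), with a 1.37-fold to 1.86-fold rise in every pool number.

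CD163, the receptor for haptoglobin-haemoglobin complexes, had 22.37, 23.66, 18.44 and 28.11 FPKM initially and 26.5, 31.97, 27.51 and 28.83 FPKM in steatosis. Only initial pool 4 reached into the steatosis range. The log2 difference of 0.32 (SE 0.13) did not pass the test (adjusted p = 0.0889), and it was 0.42 with an adjusted p of 0.0265 without initial pool 4.

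TIMD4, a phosphatidylserine receptor for dying cells that marks embryonically seeded Kupffer cells in mice, had 14.07, 13.58, 13.91 and 20.51 FPKM initially and 19.45, 24.43, 19.77 and 18.55 FPKM in steatosis. Initial pool 4 was above 3 of the 4 steatosis pools, and the other initial pools were below all of them. The log2 difference was 0.42 (SE 0.15, 95% interval 0.08 to 0.75, adjusted p = 0.0621). Without initial pool 4 it was 0.56 with an adjusted p of 0.00726.

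CD5L, the secreted protein also called AIM, which binds lipids and inhibits fatty acid synthase after uptake, had 180.79, 169.8, 165.51 and 244.31 FPKM initially and 133.3, 155.61, 148.36 and 154.99 FPKM in steatosis. It was the one gene of the 10 with a lower mean in steatosis, in 4 of 4 pool numbers and with no overlap, going from 190 ± 36.7 to 148 ± 10.4 FPKM (n = 4). The log2 difference of -0.34 (SE 0.129) did not pass the test (adjusted p = 0.0709), and it was -0.22 without initial pool 4. It stood at percentile 5.2 of all tested genes. On scales that set the median gene to about 0 it was lower at -0.62 (median ratio, adjusted p = 0.0349) and -0.58 (upper quartile, adjusted p = 0.0336). Both scales raise initial pool 4, already the highest for CD5L, more than any other library (factors 0.788 and 0.84). They were not fitted without that pool.

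The 3 C1q genes lie side by side on chromosome 6 (Sscrofa11.1), in the order C1QA (80586259 to 80589213), C1QC (80592591 to 80597464) and C1QB (80601680 to 80606076), with 3378 and 4216 bases between them. C1QB had 251.79, 307.41, 271.7 and 342.31 FPKM initially and 450.8, 434, 437.32 and 490.65 FPKM in steatosis. C1QC had 188.21, 232.51, 216.64 and 268.75 FPKM initially and 281.96, 305.33, 296.47 and 342.89 FPKM in steatosis. Neither overlapped between the groups. C1QA, by contrast, had 170.67, 197.13, 183.1 and 249.43 FPKM initially and 203.08, 200.87, 188.71 and 239.14 FPKM in steatosis, with broad overlap. Pool 4 was the highest of its group in all 3 chains and both groups.

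The log2 change was 0.64 (SE 0.11, adjusted p = 0.00271) for C1QB and 0.44 (SE 0.119, adjusted p = 0.0211) for C1QC, both under the fold limit. Without steatosis pool 4 that of C1QC was 0.39 with an adjusted p of 0.065. For C1QA the log2 difference was 0.07 with a 95% interval of -0.22 to 0.35 (adjusted p = 0.73), and it was -0.21 under median ratio scaling and -0.17 under upper quartile scaling. Under these scalings C1QB (0.36 and 0.4) and C1QC (0.17 and 0.21) no longer passed an adjusted p of 0.05.

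The ratio of 2 chains within a library does not depend on the scaling between libraries. The C1QB/C1QA ratio was 1.37 to 1.56 in the initial pools and 2.05 to 2.32 in the steatosis pools, with means of 1.47 ± 0.0769 and 2.19 ± 0.111 (n = 4). The C1QC/C1QA ratio was 1.08 to 1.18 and then 1.39 to 1.57, and the C1QB/C1QC ratio 1.25 to 1.34 and then 1.42 to 1.6. In these pools the levels of the chains did not change in equal proportion, and none of these 3 ratios overlapped between the groups. The 3 ratios are made of 3 genes, so they are not independent. How many other gene pairs separate in the same way was not counted. The genes are short (1050 to 1179 bases), and 1 of the 3 transcripts counted for C1QA was assembled by the authors as a new one, against none of those of C1QB and C1QC; its part in the ratio was not tested. These pairs were chosen after their values were seen, so no test is given.

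**Figure D2:**
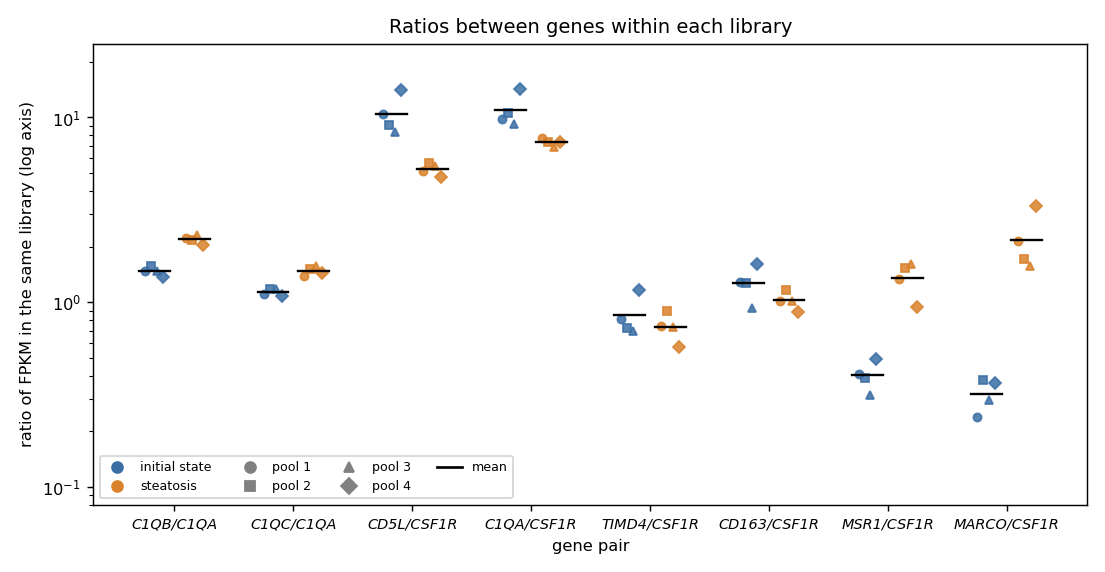
Ratio of the FPKM of gene pairs within the same library (log axis), 1 point per pool, blue for the initial state and orange for steatosis, with a bar at the mean. C1QB/C1QA (1.37 to 1.56, then 2.05 to 2.32), MSR1/CSF1R and MARCO/CSF1R are higher in all steatosis pools, CD5L/CSF1R and C1QA/CSF1R lower, and TIMD4/CSF1R and CD163/CSF1R overlap.

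Within libraries the receptors also split. Against CSF1R, MARCO went from ratios of 0.239 to 0.38 to ratios of 1.57 to 3.32, and MSR1 from 0.315 to 0.495 to 0.942 to 1.61. The ratio of CD5L to CSF1R went the other way, from 8.33 to 14 initially to 4.76 to 5.67 in steatosis. TIMD4 and CD163 kept ratios to CSF1R that overlapped between the groups. For VSIG4 the overlap came from steatosis pool 4 alone (0.833). Its ratios in steatosis pools 1 to 3 (1.29 to 1.39) lay above the initial range of 0.736 to 1.27. MSR1 was below TIMD4 in every initial pool (ratio 0.422 to 0.537) and above it in every steatosis pool (1.65 to 2.21). The receptor pairs, too, were chosen after their values were seen, and no test or share of other gene pairs is given for them.

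The 10 genes summed to a mean of 998 FPKM initially and 1330 FPKM in steatosis. CD5L made up 19% of that sum initially and 11.2% in steatosis, and C1QA 20% and then 15.6%. MARCO rose from 0.589% to 4.67% and MSR1 from 0.736% to 2.88%, whereas TIMD4 held 1.55% and 1.56%. The C1q chains and CD5L therefore made up most of the summed level in both groups.

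A further comparison asked whether each gene changed by another amount than genes of macrophages in general. The reference was the mean log2 level of 13 pan-macrophage genes, among them CD68, TYROBP, FCER1G, SPI1, MPEG1, CTSS and CD14. It was 3.3 to 3.62 in the initial pools and 4.53 to 4.65 in the steatosis pools. Of the 13, 7 were called higher and 0 lower, beside 6.01% and 0.334% of all tested genes, with a median log2 change of 1.3. The row under the symbol CD68 (gene 103158530, a lysosomal membrane protein of phagocytes), the pore-forming MPEG1 and the myeloid transcription factor SPI1 rose most, by 2.01, 1.87 and 1.5 on the log2 scale. A second row that the files describe as macrosialin, the protein of CD68, and that the study names CD68 is LOC100520753 (gene 100520753). It was not in the reference and went from a mean of 0.535 to 16.1 FPKM (log2 change 4.83, SE 0.652, adjusted p = 0.000753). CD68, TYROBP, FCER1G, SPI1, CTSS and MS4A7 also stand in lists the study chose on these libraries. CD14, singled out after its values were seen, had 204 ± 16.5 FPKM initially and 179 ± 18.5 FPKM in steatosis (log2 difference -0.19, adjusted p = 0.186).

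Relative to this reference, MARCO (2.26, adjusted p = 5.36e-05) and MSR1 (1.28, adjusted p = 4.01e-05) were higher in steatosis on the log2 scale. CD5L (-1.41, adjusted p = 2.31e-05) and C1QA (-1, adjusted p = 6.4e-05) were lower. These calls of 2 higher and 2 lower stand beside 0.721% and 25.8% of all tested genes in this fit, so the lower calls are near the background. The C1QA call lies at the fold limit and was lost without initial pool 4 (-0.93) and without steatosis pool 2 or 3. For VSIG4 the relative difference was -0.13 with a 95% interval of -0.44 to 0.18. C1QB (-0.43), CSF1R (-0.45), C1QC (-0.62), TIMD4 (-0.65) and CD163 (-0.75) were lower with adjusted p values between 0.000375 and 0.0053, without reaching the fold limit. At an adjusted p under 0.05 without a fold limit, 2 of the 10 were higher and 7 lower in this fit, beside 1.93% and 75.6% of all tested genes. The reference itself rose, so most genes were lower relative to it. It was subtracted as a fixed value in each library, so these p values leave out the spread among its genes. Their log2 changes ran from -0.19 (CD14) to 2.01 (CD68), and they were chosen with earlier results of these data known.

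The choice of reference mattered. With the CD68 row alone as the reference, only MARCO (1.32) of the 10 genes was called higher and 8 were called lower, beside 0.243% and 89.9% of all tested genes, MSR1 having 0.34 with an adjusted p of 0.384. With the LOC100520753 row alone, an alternative added after seeing the data, 0 of the 10 were called higher and 9 lower, beside 0% and 99.5% of all tested genes. MARCO (-1.5, SE 0.89, adjusted p = 0.0917) and MSR1 (-2.48, SE 0.888, adjusted p = 0.00522) were then negative. With CSF1R alone, MARCO (2.71) and MSR1 (1.73) were called higher and 0 lower, beside 1.61% and 3.03% of all tested genes. CD5L (-0.96, adjusted p = 0.00212) and C1QA (-0.55, adjusted p = 0.0122) were then below CSF1R in their change, and VSIG4 (0.32) and C1QB (0.02) turned sign without passing the test.

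**Figure D3:**
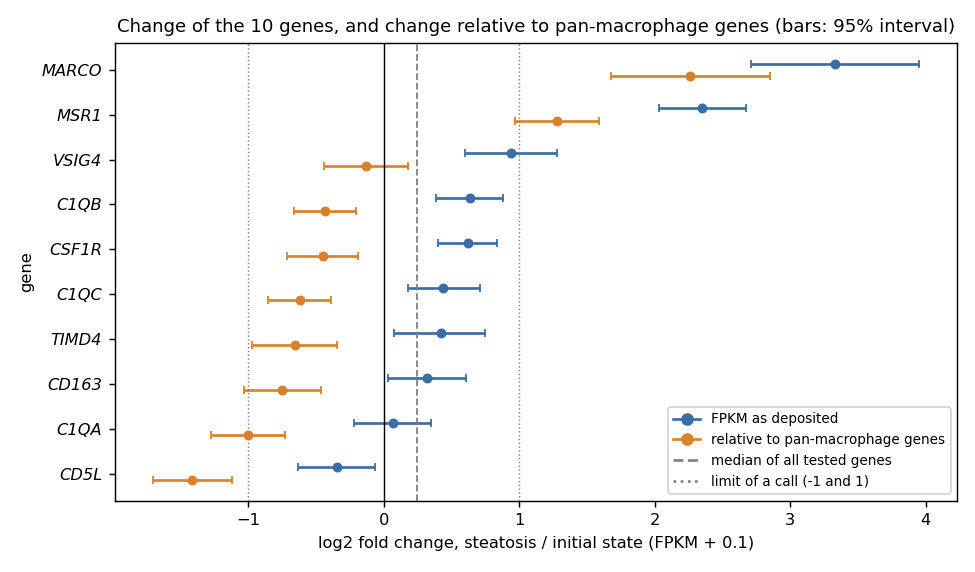
Log2 fold change of steatosis against the initial state for each gene, in blue on the deposited FPKM scale and in orange relative to the 13 pan-macrophage genes, with 95% intervals. The dashed line is the median of all tested genes (0.25) and the dotted lines the limits of a call; MARCO and MSR1 lie beyond 1 in both, and CD5L lies at -0.34 and -1.41.

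Scaling shifted all 10 genes together. Under median ratio scaling the log2 change was 3.06 for MARCO, 2.08 for MSR1, 0.67 for VSIG4 and 0.35 for CSF1R, and these 4 kept an adjusted p under 0.05 (0.0309 for VSIG4 and 0.0304 for CSF1R). TIMD4 (0.14) and CD163 (0.05) came close to 0. The median of all tested genes was then -0.01. Again 8 of the 10 lay above it, a count that scaling by 1 factor per library can hardly change. Of all calls, 94.7% were higher on the deposited scale, 83.2% under median ratio scaling and 85.7% under upper quartile scaling.

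**Figure D4:**
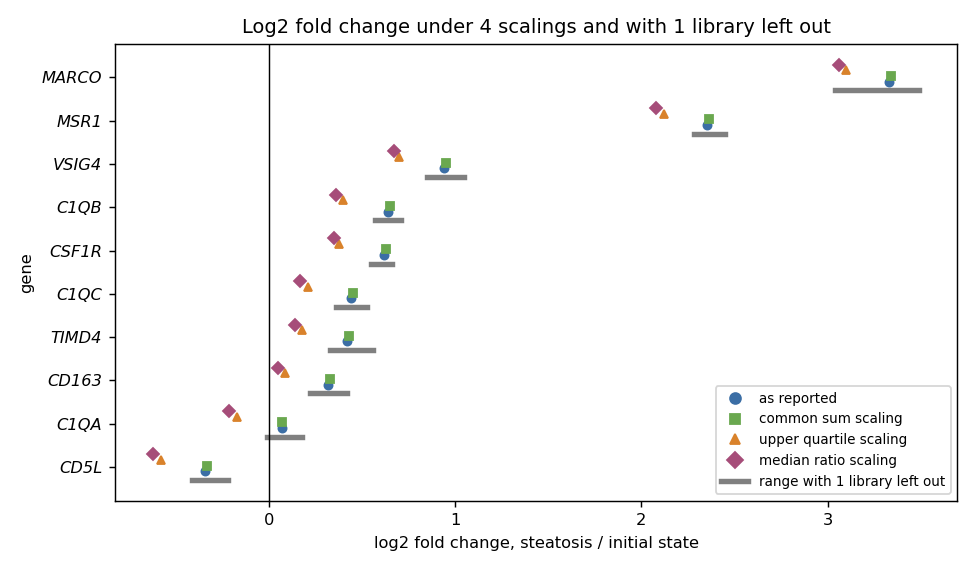
Log2 fold change of each gene as reported and under 3 other scalings (markers), with a grey bar for the range when 1 library is left out. MARCO runs from 3.04 to 3.49 and MSR1 from 2.28 to 2.45 when 1 library is left out, while C1QA lies on both sides of 0 (-0.21 to 0.18 over all settings).

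Other genes of the same cell type and pathways are given from lists. The counts of calls in these lists stand beside 6.01% of all tested genes called higher and 0.334% called lower. Of 10 other Kupffer cell genes tested, 3 were called higher and 0 lower, with a median log2 change of 0.58: the phagosomal metal transporter SLC11A1 (2.94, from 1.6 to 12.5 FPKM), the efferocytosis kinase MERTK (1.29) and the IgG receptor FCGR3A (1.2). SLC11A1 and FCGR3A are in pathway lists the study chose on these libraries. FOLR2, a folate receptor of resident macrophages, and SLC40A1, the iron exporter ferroportin, had 196 and 184 FPKM and 183 and 216 FPKM in the initial state and steatosis, both with overlap; both were singled out after their values were seen. CLEC1B, CETP and LILRB5 were not matched by symbol. Of 12 transcription factors of Kupffer cells, 2 were called higher and 0 lower (TFEC, 1.13, and BHLHE41, 1.05), with a median of 0.38.

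Among 13 further scavenger receptors tested, 3 were called higher and 0 lower (all tested genes: 6.01% and 0.334%), with a median log2 change of 0.5. They were the fatty acid and oxidised LDL receptor CD36 (2.87), the oxidised LDL receptor OLR1 (1.19) and the lysosomal SCARB2 (1.04), of which CD36 and OLR1 are in lists the study chose on these libraries. CD36 had 6.43 FPKM in initial pool 1 and at most 0.89 FPKM in the other initial pools, against 7.81 to 15.71 FPKM in steatosis. CD163L1 stayed at or under 0.17 FPKM in every library and was not tested.

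Of all tested genes, 6.01% were called higher and 0.334% lower. Around TIMD4, 3 of 13 tested genes of dying cell uptake were called higher and 0 lower (median 0.53): ANXA1 (2.08), MERTK (1.29) and TYRO3 (1.26). Its relative and chromosomal neighbour HAVCR1 had a mean of 0.0475 FPKM in both groups. Around VSIG4, 3 of 9 tested complement receptors were called higher and 0 lower (median 0.53): the anaphylatoxin receptors C5AR1 (1.92) and C3AR1 (1.05) and the integrin chain ITGB2 (1.51). Around C1q, 0 of 13 tested genes of the classical pathway and its receptors were called in either direction (limma), with a median log2 change of 0.12. At an adjusted p under 0.05, 5 were higher and 1 lower, near the 26.7% and 2.28% of all tested genes. The largest changes there were those of LRP1 (0.72), CD93 (0.55) and C4BPA (0.48), all under the limit of a call.

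Around CSF1R, 1 of 8 tested genes was called higher and 0 lower (CSF3R, 1.49), with a median of 0.75. This count and that of the next list stand beside 6.01% and 0.334% of all tested genes and are near that background. Around CD163, 1 of 10 tested genes of haemoglobin and iron handling was called higher and 0 lower, the biliverdin reductase BLVRB (1.17), with a median of 0.33. At an adjusted p under 0.05 without a fold limit, 26.7% of all tested genes were higher and 2.28% lower. Of this list 5 were higher, BLVRA (0.88) and LRP1 (0.72) among them, and 2 were lower. These were HP, the haptoglobin that brings haemoglobin to CD163 (from 7230 to 5020 FPKM, log2 change -0.52, adjusted p = 0.0245), and HPX, the haem carrier hemopexin (from 2680 to 1900 FPKM, log2 change -0.49, adjusted p = 0.0105), both named after their values were seen and both with every steatosis pool below every initial pool. The summed FPKM of that list is set by a few hepatocyte genes and lay at 17100 to 20000 initially and at 17700 to 18300 in steatosis.

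**Figure D5:**
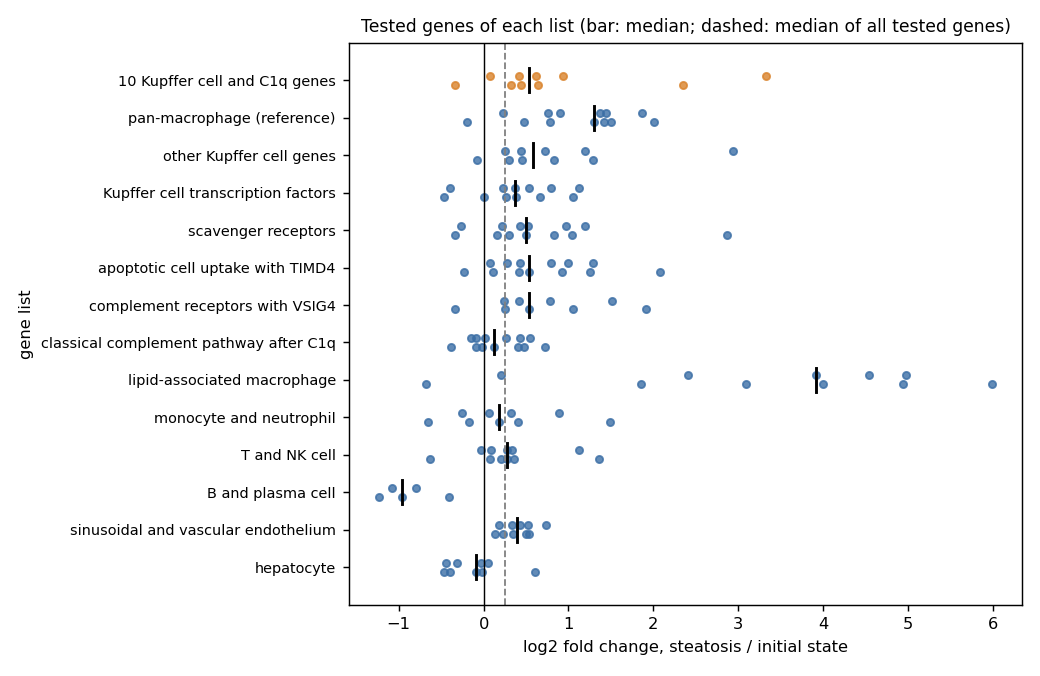
Log2 fold change of each tested gene of the lists, with 1 dot per gene, a bar at the median of a list and a dashed line at the median of all tested genes (0.25). The 10 genes (orange, MARCO and MSR1 at the right) spread between -0.34 and 3.33, while the pan-macrophage list has a median of 1.3 and the lipid-associated macrophage list one of 3.92.

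Markers of other cells and macrophage states were read beside these genes, and no matched gene of any list was at 0 in every library. Of all tested genes, 6.01% were called higher and 0.334% lower, so lists with 1 gene called higher are near that background. Of 11 lipid-associated macrophage genes, 8 were called higher and 0 lower, with a median log2 change of 3.92: LGALS3 (5.99), TREM2 (4.98) and GPNMB (4.94) changed most. The first and last of these are among genes the study selected from the same libraries. The pan-macrophage genes, summed at 401 to 470 FPKM initially and at 760 to 829 FPKM in steatosis, were higher in sum in every steatosis pool, as MARCO and MSR1 were. So were the lipid-associated genes, at 4630 to 5860 FPKM and then 7060 to 7700 FPKM. APOE made up most of that sum (means 4760 and 5460 FPKM, with overlap). PLIN2 of that list was lower without a call (log2 change -0.68, limma adjusted p = 0.0172). APOE and PLIN2 were singled out after their values were seen. The T and NK cell genes (44.4 to 72 FPKM, then 86.9 to 98.6 FPKM) were also higher in sum. Of these, 2 of 11 were called higher, NKG7 (1.36, means 13.5 and 34.6 FPKM) and CD4 (1.12, means 8.21 and 18.1 FPKM), and 0 lower. Their median was 0.28, and the other T and NK cell genes overlapped between the groups. The part of the genes of these lists in the rises of MARCO and MSR1 was not tested. Stellate cell genes had 1 of 8 called higher (LRAT, 1.25), 0 lower and a median of 0.77, with sums of 59 to 270 FPKM and 112 to 278 FPKM that overlapped. The highest initial sum was that of pool 1, which holds muscle transcripts. DES, singled out after its values were seen, had 71.55 FPKM there and 3.23 to 7.39 FPKM in the other initial pools. Monocyte and neutrophil genes had 1 of 9 called higher and a median of 0.18, with summed levels of 13.6 to 21.1 FPKM and 15.9 to 25.5 FPKM. B and plasma cell genes had 0 of 5 called higher and 1 lower, with a median of -0.96 (20 to 52.6 FPKM initially, 14.1 to 19.7 FPKM in steatosis). Endothelial genes had 0 of 10 called and a median of 0.39. Their sum was also higher in every steatosis pool (176 to 218 FPKM, then 228 to 257 FPKM). Hepatocyte genes had 0 of 9 called and a median of -0.09 (62900 to 95400 FPKM, then 55700 to 66700 FPKM).

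The genes whose profile over the 8 libraries was most like that of a given member were found by the root mean square difference of log2 levels, each centred on its own mean. For MSR1 they were CTSD, the lysosomal protease cathepsin D (0.167), GP91-PHOX, the catalytic subunit of the phagocyte oxidase (0.207), and EFNA2 (0.217). For TIMD4 they were MS4A4A (0.061), a membrane protein of macrophages, CYP3A46 (0.066) and C4BPA (0.082). Those near CSF1R included PLEKHA7 (0.052) and SIL1 (0.065).

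MARCO had no profile as near: GDPD2 (0.321), PRSS35 (0.367) and TNFRSF9 (0.372) came first. The nearest genes to CD5L were BCKDHB (0.084), SLC25A4 (0.105) and ECI1 (0.109). Among the 10 genes the nearest pairs were C1QB with C1QC (0.11) and CD163 with TIMD4 (0.138), while MSR1 lay 0.736 from MARCO and 0.716 from VSIG4. With 8 libraries and a common group difference, many genes lie close to any profile of small change, so these values are descriptions.

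Apart from the C1q genes, each of the 10 lies on a chromosome of its own: CD5L on 4 (92394535 to 92412146), CD163 on 5 (63300200 to 63334497), CSF1R on 2 (151102138 to 151130311), VSIG4 on X (52175601 to 52198635), TIMD4 on 16 (66253572 to 66292963), MSR1 on 17 (3859903 to 3939612) and MARCO on 15 (24502935 to 24541286), all in Sscrofa11.1. The neighbour of CD5L, LOC100152824, an Fc receptor-like gene 3535 bases away, went from 0.617 to 2.89 FPKM (log2 change 2.05, adjusted p = 8.81e-05) where CD5L did not rise. PDGFRB, the gene after CSF1R, had a log2 change of 0.73 (adjusted p = 0.0183), and MSN, before VSIG4, one of 0.8 (adjusted p = 0.000976). EPHB2, after C1QB, had 0.0125 FPKM in both groups. The FPKM of CD5L, MARCO and TIMD4 include transcripts newly assembled by the authors (4 of 6, 2 of 3 and 2 of 7). So do those of MSR1 (1 of 9), CD163 (1 of 6) and CSF1R (1 of 4). The part of these transcripts in the levels was not tested.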

How the data were processed

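Hepatic RNA of 8 pools (4 of the initial state, 4 of steatosis) was sequenced. Reads were filtered, mapped with HISAT2 2.0.4 to Sus scrofa 11.1 and assembled with StringTie; new coding transcripts were added and expression was estimated with Bowtie2 2.2.5 and RSEM 1.2.12 (versions from the submitters' processing notes). The FPKM of each gene and library were deposited by the authors, with no stated scaling between libraries. Fold changes, p values and FDR of the authors' comparisons of single pools (a Poisson method) were not used, and from 1 of those tables only gene lengths were taken. No sequencing batch is given in the labels.

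The filter kept 13175 genes, those reaching 0.3 FPKM in 4 or more of the 8 libraries. A limma model (3.58.1, R 4.3.3) with a trended variance was fitted to their log2 values, after adding 0.1 FPKM, without covariates, and p values were adjusted by Benjamini-Hochberg. Fold changes on this scale understate those of low genes. A call required a log2 fold change beyond 1 with adjusted p below 0.01, as in the paper. The relative fit subtracted the mean log2 level of the 13 pan-macrophage genes in each library from every gene. Mean FPKM of single genes was also tested by exact permutation, two-sided, over all 70 splits, whose smallest p is 0.0286. This p was reached by MARCO, MSR1, VSIG4, CSF1R, CD5L, C1QB and C1QC, and was 0.0857 for CD163, 0.1143 for TIMD4 and 0.6571 for C1QA (exact permutation test). It is not adjusted, and any gene without overlap between the groups reaches its smallest value. In 29.6% of tested genes all steatosis pools lay above, and in 2.53% all lay below. The p values measure the spread between pools of 2 pigs, not between single pigs. The fit was tested on simulated data. Tables were made with Python 3.11.15, pandas 2.3.3, numpy 2.4.6 and scipy 1.17.1, and plots with matplotlib 3.10.9.

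Depth was read from the step of FPKM times length in genes of 800 to 1500 bases. FPKM holds no counting error, so precision is the SD between pools. Coordinates are those of RefSeq genes of Sscrofa11.1 matched by gene ID. For TF, C4BPA and GZMA, listed on several rows, the row with the highest mean was used.

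Both groups are the same animals according to the paper, which does not say that pools of the same number hold the same pigs. Deviations from the group means correlated at 0.16, 0.35, 0.32 and 0.25 between pools of the same number, each over 0.1. Each initial pool correlated best with the steatosis pool of its own number. The pool number was therefore used as a block in an alternative fit. Other alternatives were scaling, filter, pseudocount, thresholds, the reference and leaving out each library.

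The 10 genes and all lists were chosen with earlier results of these data known. Named are the 10 genes, at most 3 genes of each list (the largest changes), the 3 nearest profiles, chromosomal neighbours, some genes of the reference list, and others where said; a few genes that this rule names are not reported here.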

Additional observations from a re-analysis of the deposited data

Results flagged for a closer look

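TIMD4 in the initial state had 1 pool far from the others: pool 4 had 20.51 FPKM, and the other 3 pools had 13.58 to 14.07 FPKM, so that its gap to the nearest pool was 0.929 of the whole range of the group, more than Dixon's test allows for 4 samples at the 95% level. Chance alone takes about 1 in 20 groups past the limit of that test, and each of the 10 genes was looked at in both conditions. The same pool was highest for 8 of the 10 genes. Without it the log2 change of TIMD4 was 0.56 in place of 0.42, and all steatosis pools lay above the remaining initial pools.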

How the results depend on the processing

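The calls of MARCO (log2 change 3.04 to 3.49) and MSR1 (2.08 to 2.45) in the comparison not relative to a reference held in all 18 alternatives. Of the 10 genes 2 were called higher, or 2 to 3 with 1 library left out, and 6 at an adjusted p under 0.05 without a fold limit. Over all genes, 792 were called higher and 44 lower. Those counts were 411 and 83 under median ratio scaling, 439 and 73 under upper quartile scaling, 418 and 14 at an adjusted p under 0.001, 3519 and 300 at 0.05 without a fold limit, and 68 and 1 with limma's treat test. With a pseudocount of 1, 395 were higher. With 1 library left out they ran from 625 to 778 higher and from 26 to 50 lower, the lowest without steatosis pool 4 (28 without steatosis pool 2). Relative to the pan-macrophage genes, 2 members higher became 0 under treat, 1 with CD68 as the reference and 0 with LOC100520753, which was added after seeing the data. The 2 lower became 1 with a pseudocount of 1, 7 without a fold limit, 0 under treat, 8 with CD68 (89.9% of all tested genes lower), 9 with LOC100520753 (99.5%), 0 with CSF1R (3.03%), and 1 to 2 with 1 library left out. C1QA turned sign under median ratio (-0.21) and upper quartile scaling (-0.17), and ran from -0.01 (without initial pool 1) to 0.18 when 1 library was left out. Relative to CSF1R alone, VSIG4 (0.32) and C1QB (0.02) turned sign, as did MARCO (-1.5) and MSR1 (-2.48) relative to LOC100520753 alone. The causes were not tested. Of 359 values of single genes under alternatives, 317 kept direction and call, 11 lost the call, 23 gained it and 8 turned sign.

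With the pool number as a block, 785 genes were called higher and 57 lower, with the 2 members MARCO and MSR1 (adjusted p = 0.000204 each in limma) and no member call changed. Relative values gave 2 and 2 with the block. Without initial pool 1, which holds muscle and stomach transcripts, 2 members were called higher and 0 lower. With 4 pools of 2 pigs a group, differences near the fold limit (VSIG4, C1QA relative to the reference) depended on single pools.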
